A study of Homo sapiens
Mus musculus with 16 samples.

Results

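The genes described here encode the proteins that fix basal epithelial cells to the basement membrane, measured in tumours of ScaBER, an established human bladder cancer cell line. They are the hemidesmosome and epithelial integrin subunits ITGA6, ITGB4, ITGA3, ITGB1 and ITGA2, the laminin chains LAMA3 and LAMB3, and the collagens COL17A1 and COL7A1. They were taken by symbol from the table of reads mapped to the human genome, and all 9 were found among its 23368 genes. All 9 passed the filter on low values (4 or more libraries with a normalized value of 1 or above), which 17663 genes passed.

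ScaBER cells were grown as xenografts in Hsd:Athymic Nude-Foxn1nu mice, which lack a thymus, so every group shares this host. Tumours were taken after 14 days of treatment, in 4 groups of 4 libraries. The combination group received alpelisib (BYL719) at 25 mg/kg with nintedanib at 40 mg/kg, the nintedanib group 40 mg/kg, the alpelisib group 25 mg/kg, and the vehicle group methylcellulose with Tween80. The stated purpose was to learn how the drugs act together in vivo, and the series text counts 4 treated tumours a group. No label says whether tumours shared an animal, so the p-values measure the spread between these tumour libraries. All groups rest on a single cell line, and no coordinates are given because the gene table at hand is of another genome build than the files.

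Integrins are pairs of an alpha and a beta chain. ITGA6 pairs with ITGB4 in the hemidesmosome, the plaque that ties the keratin filaments of a basal cell to the matrix below it, while ITGA3 and ITGA2 pair with ITGB1 in receptors for laminin and for collagen. The matrix side holds a laminin that the cells themselves secrete, and LAMA3 and LAMB3 encode chains of it. Collagen XVII, encoded by COL17A1, spans the membrane within the hemidesmosome, and collagen VII, encoded by COL7A1, forms the anchoring fibrils beneath the basement membrane. Nintedanib blocks several growth factor receptor kinases of vessels, stroma and tumour, and alpelisib blocks a PI3K catalytic subunit that integrins and growth factor receptors both use.

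Libraries held 8303617 to 18568119 reads in the human table, and each of the 9 genes had between 244 and 19924 reads in every library, so counting error was small beside the spread between libraries. These are bulk tumours, in which fewer cells of a type and less RNA per cell cannot be told apart. The squamous epithelial markers KRT5, KRT14, KRT6A, KRT17, TP63, CDH1, EPCAM, DSG3 and DSP were all present, with a summed normalized value of 278370 to 424422 in combination, 332613 to 460143 in nintedanib, 231815 to 421902 in alpelisib and 242451 to 404878 in vehicle libraries. Genes listed as markers of other cell types were also present in the human table. Fibroblast markers (COL1A1, COL1A2, COL3A1, DCN, LUM and PDGFRA) summed there to 45770 to 59796 in combination, 50077 to 91470 in nintedanib, 46128 to 65792 in alpelisib and 46928 to 70038 in vehicle libraries, ranges that overlapped. Keratin and cornified-layer markers of skin and hair (KRT71, KRT25, KRT27, KRT10, KRT1 and LOR) summed to 6041 to 14557 in combination, 8546 to 29384 in nintedanib, 13036 to 31143 in alpelisib and 12321 to 16109 in vehicle libraries. Their mouse-table sums were far lower, at 197 to 785 in combination, 161 to 457 in nintedanib, 165 to 6815 in alpelisib and 190 to 322 in vehicle libraries. Endothelial markers (PECAM1, CDH5, KDR, TEK and EMCN) summed to 23.1 to 77.5 in combination, 35.3 to 53.3 in nintedanib, 15.7 to 32.8 in alpelisib and 7.62 to 27.9 in vehicle libraries. The nintedanib and vehicle ranges did not overlap, but these sums are low, with up to 2 of the 5 markers at 0 in a library. In the mouse table the same markers leaned the other way. They summed to 1109 to 1592 in combination, 950 to 2045 in nintedanib, 1572 to 2232 in alpelisib and 1772 to 2498 in vehicle libraries. There the combination range lay below the vehicle range without overlap, while the nintedanib and vehicle ranges overlapped. Which cells gave these sums, and what part they had in the results below, was not tested.

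None of the 9 genes passed the test for a difference between treatments, and the genes went in different directions within each treatment. In limma, 0 of 9 passed an adjusted p of 0.05 in any of 8 comparisons, where the share of all genes called was 0% in 7 comparisons and 0.00566% for combination against alpelisib. edgeR and DESeq2 on the recovered reads also called 0 of 9 in each. At an unadjusted p under 0.05, 1 of 9 was higher with the combination than with vehicle (COL7A1), where 4.47% of all genes were higher and 3.69% lower. With nintedanib alone 1 of 9 was higher (ITGB1) against 6.88% of all genes higher and 4.7% lower. With alpelisib alone the count was 0 of 9, against 1.69% higher and 0.793% lower. Treated and vehicle libraries overlapped for every one of the 9 genes, where groups that did not overlap made up 1.79% higher and 1.08% lower of all genes for the combination, 4.86% and 3.22% for nintedanib, and 1.23% and 0.685% for alpelisib. Combination libraries likewise overlapped those of either single drug for all 9 genes, against 1.84% higher and 1.66% lower of all genes for nintedanib and 1.6% and 1.49% for alpelisib.

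The median log2 difference from vehicle over the 9 genes was -0.02 with the combination, 0.03 with nintedanib and -0.17 with alpelisib, beside medians over all genes of 0.03, 0.02 and 0.0055 (each on the log2(value + 1) scale). Differences from vehicle lay above 0 in 4 of 9 genes with the combination, in 5 of 9 with nintedanib and in 2 of 9 with alpelisib. Without alpelisib 3 the count was 0 of 9 with alpelisib, with a median of -0.24. Leaving out other single libraries moved genes the other way. The alpelisib difference then reached 0.012 for ITGA6 and 0.057 for ITGA3, which lay below 0 in the full fit. Between the combination and alpelisib 8 of 9 genes lay above 0, with a median of 0.13 beside 0.012 over all genes. These comparisons share libraries, and no test was made of the set. Of the variance of log2 values over the 16 libraries, the treatment groups took a median of 19.1% over the 9 genes, from 5.79% for ITGA3 to 50.8% for ITGB1, beside a median of 21.4% over all genes tested. Standard errors of a difference were 0.17 to 0.28, so the 95% intervals leave room for changes of moderate size. They reached 1.01 above and -0.69 below vehicle with the combination, 0.82 and -0.85 with nintedanib, and 0.56 and -0.78 with alpelisib.

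**Figure D1:**
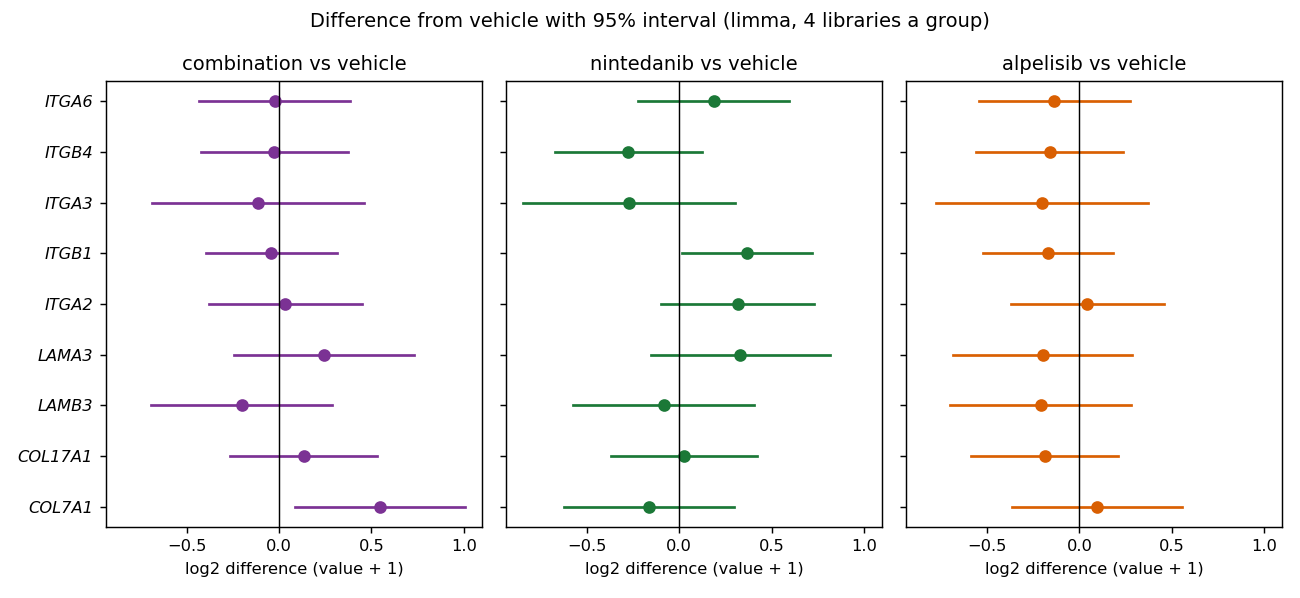
Log2 difference from vehicle (x axis, log2(value + 1) scale) of each of the 9 genes for the combination, nintedanib and alpelisib, with 95% intervals from limma. The interval lies above 0 for COL7A1 with the combination (0.55) and for ITGB1 with nintedanib (0.37), neither of which passed adjustment over all genes.

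ITGA6, the alpha chain of the hemidesmosome integrin, had normalized values of 3690, 2425, 2767 and 3985 in combination libraries 1 to 4, 4012, 4122, 3582 and 2980 in nintedanib libraries, 3310, 2658, 3189 and 2572 in alpelisib libraries, and 2266, 3272, 4355 and 3255 in vehicle libraries. Vehicle 1 was the lowest and vehicle 3 the highest of all 16, so the vehicle group alone spanned the whole range. Its difference from vehicle was -0.02 (SE 0.20) with the combination, 0.19 (SE 0.20) with nintedanib and -0.14 (SE 0.20) with alpelisib.

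ITGB4, the beta chain that binds plectin through its long cytoplasmic tail, had values of 3882, 6624, 4723 and 4125 in combination libraries, 4729, 3673, 4075 and 3531 in nintedanib libraries, 3895, 4313, 5106 and 3999 in alpelisib libraries, and 6256, 3743, 5475 and 4192 in vehicle libraries. Combination 2 and vehicle 1 held the highest values, and these are the lowest vehicle library and the lowest combination library for ITGA6. ITGB4 differed from vehicle by -0.03 (SE 0.19) with the combination, -0.28 (SE 0.19) with nintedanib and -0.16 (SE 0.19) with alpelisib. In the RefSeq gene table of GRCh38.p14, ITGB4 overlaps GALK1, and since the counting is not stated to use strand, reads of the overlap could not be assigned to either gene with certainty.

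Collagen XVII was the steadiest of the 9 genes, with 1.80-fold between its highest and lowest library. COL17A1 had values of 13079, 15107, 14818 and 13420 in combination libraries, 14058, 13726, 13453 and 11238 in nintedanib libraries, 14198, 8687, 13530 and 9694 in alpelisib libraries, and 11866, 10962, 15612 and 13393 in vehicle libraries. The combination libraries lay close together (14106 ± 1006, SD, n = 4) inside the vehicle range (12958 ± 2034, SD, n = 4), and the lowest values were those of alpelisib 2 and alpelisib 4. Its difference from vehicle was 0.13 (SE 0.19) with the combination, 0.03 (SE 0.19) with nintedanib and -0.19 (SE 0.19) with alpelisib.

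**Figure D2:**
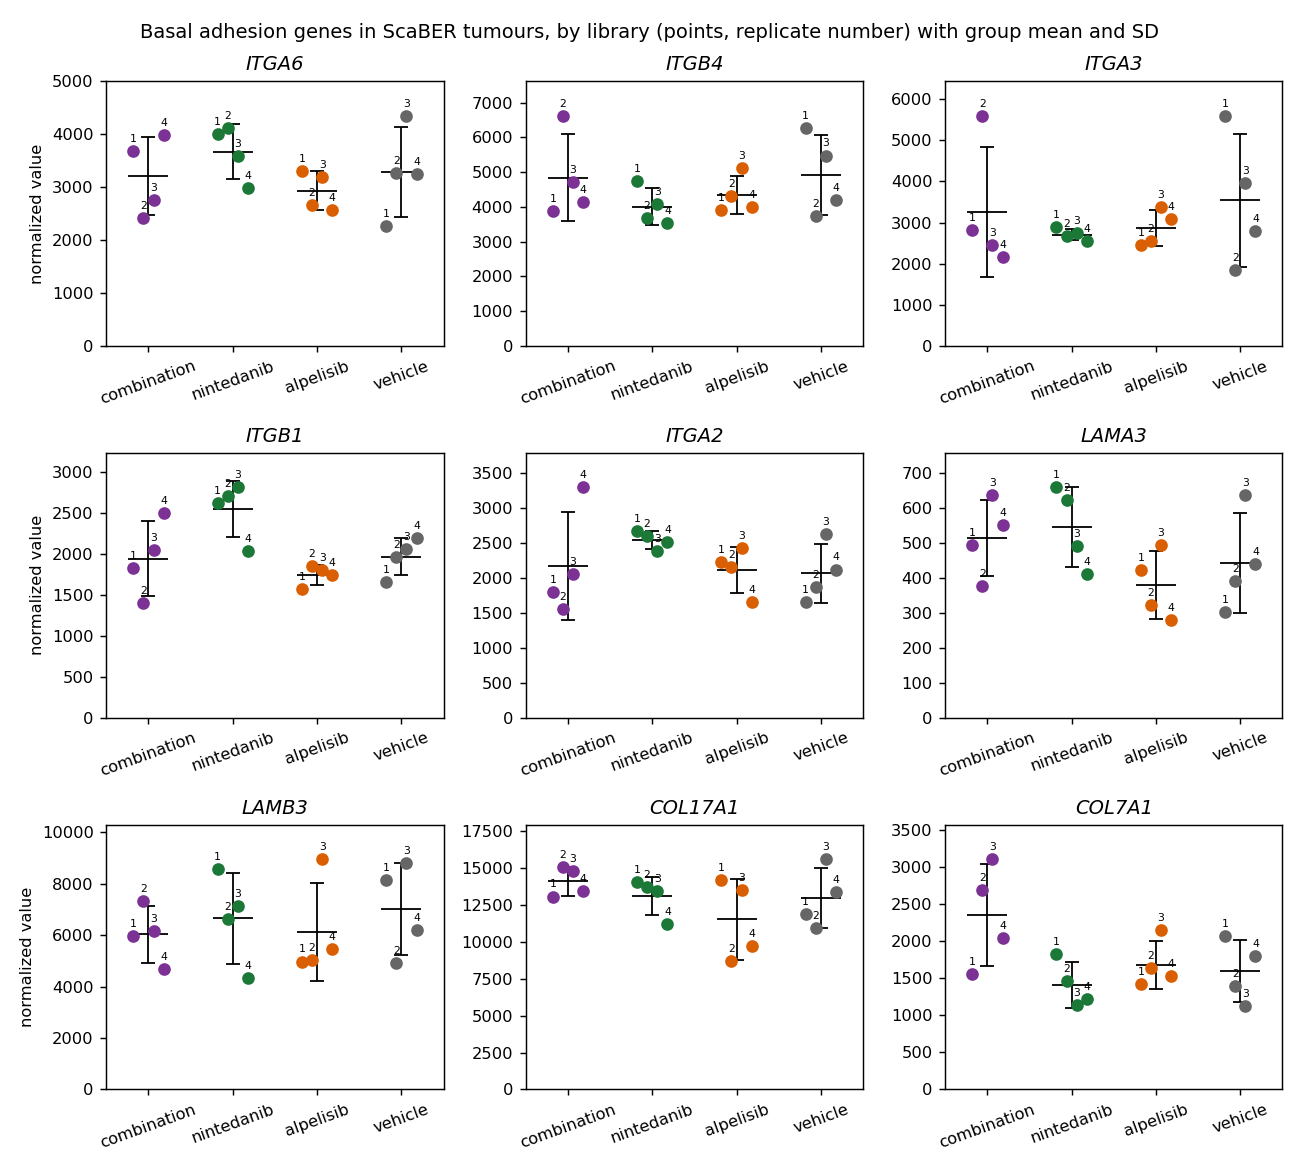
Normalized value (y axis, from 0) of each gene in each library, with the replicate number beside each point, and the group mean and SD (bars, n = 4). Every treated group overlaps the vehicle group for all 9 genes, and ITGA3 has its highest points in combination 2 (5603) and vehicle 1 (5600).

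ITGB1, the beta chain shared by the laminin and collagen receptors, had its highest group mean with nintedanib alone and passed no adjusted threshold. It had values of 1821, 1400, 2043 and 2498 in combination libraries, 2623, 2701, 2809 and 2038 in nintedanib libraries, 1572, 1850, 1804 and 1737 in alpelisib libraries, and 1652, 1960, 2054 and 2193 in vehicle libraries. Nintedanib 1, 2 and 3 lay above every other library of the series, whereas nintedanib 4 lay inside the vehicle range. The group averaged 2543 ± 345 with nintedanib and 1965 ± 230 with vehicle (SD, n = 4 each), a log2 difference of 0.37 (SE 0.17, limma unadjusted p = 0.0411, adjusted p = 0.415). With the combination the difference from vehicle was -0.04 (SE 0.17), and with alpelisib -0.17 (SE 0.17).

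Set against nintedanib alone, the ITGB1 difference of the combination was -0.41 log2 (SE 0.17, limma unadjusted p = 0.0246, adjusted p = 0.448). This was 1 of 9 genes lower at an unadjusted p under 0.05, against 5.24% of all genes. Over both levels of nintedanib, ITGB1 ran from 1400 to 2498 with a median of 1813 in the 8 libraries with alpelisib and from 1652 to 2809 with a median of 2124 in the 8 without it (-0.29, SE 0.12, limma unadjusted p = 0.0247, adjusted p = 0.9996). The interaction, which asks whether the combination departs from the sum of the single effects, was -0.24 (SE 0.24) for ITGB1, so a difference in the nintedanib effect with and without alpelisib was not shown. Without combination 2 the difference from nintedanib was -0.26 (limma unadjusted p = 0.125), and without vehicle 1 the difference of nintedanib from vehicle was 0.29 (limma unadjusted p = 0.124).

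ITGA3, the alpha partner for laminin, varied most between libraries, and the treatment groups took the smallest share of its variance. It had values of 2819, 5603, 2456 and 2150 in combination libraries, 2881, 2661, 2748 and 2541 in nintedanib libraries, 2460, 2543, 3374 and 3079 in alpelisib libraries, and 5600, 1844, 3954 and 2791 in vehicle libraries. Combination 2 and vehicle 1 stood apart at nearly the same level, 3.04-fold above the lowest library, vehicle 2. The nintedanib libraries held the narrowest range (2708 ± 143, SD, n = 4) and the vehicle libraries the widest (3547 ± 1618, SD, n = 4). ITGA3 differed from vehicle by -0.11 (SE 0.28) with the combination, -0.27 (SE 0.28) with nintedanib and -0.20 (SE 0.28) with alpelisib. Without vehicle 1 the combination and alpelisib differences were 0.15 and 0.057 and the nintedanib difference -0.013, whereas without vehicle 2 the nintedanib difference was -0.55 (limma unadjusted p = 0.0465).

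ITGA2, the alpha chain of the collagen receptor, also had its narrowest range with nintedanib. Its values were 1796, 1558, 2055 and 3299 in combination libraries, 2680, 2596, 2382 and 2512 in nintedanib libraries, 2229, 2161, 2435 and 1656 in alpelisib libraries, and 1652, 1871, 2636 and 2122 in vehicle libraries. All nintedanib libraries lay above 3 of the 4 vehicle libraries, and combination 4 and combination 2 were the highest and lowest of the series. The difference from vehicle was 0.03 (SE 0.20) with the combination, 0.32 (SE 0.20, limma unadjusted p = 0.126) with nintedanib and 0.04 (SE 0.20) with alpelisib.

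LAMA3 encodes the alpha chain of the laminin. It had values of 494, 376, 636 and 550 in combination libraries, 659, 623, 492 and 411 in nintedanib libraries, 424, 323, 495 and 281 in alpelisib libraries, and 302, 390, 638 and 440 in vehicle libraries. It ran from 376 to 659 with a median of 522 in the 8 libraries with nintedanib and from 281 to 638 with a median of 407 in the 8 without it, so the ranges overlapped. The effect of nintedanib averaged over alpelisib was 0.39 log2 (SE 0.17, limma unadjusted p = 0.0288, adjusted p = 0.301), where LAMA3 was 1 of 9 genes higher at an unadjusted p under 0.05 and 7.2% of all genes were higher and 6.96% lower. Against vehicle LAMA3 stood at 0.24 (SE 0.23) with the combination, 0.33 (SE 0.23) with nintedanib and -0.20 (SE 0.23) with alpelisib.

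LAMB3, encoding its beta chain, had values of 5955, 7335, 6168 and 4666 in combination libraries, 8560, 6617, 7125 and 4323 in nintedanib libraries, 4977, 5046, 8959 and 5470 in alpelisib libraries, and 8163, 4918, 8820 and 6221 in vehicle libraries. Alpelisib 3 was the highest of the series while the other alpelisib libraries lay between 4977 and 5470. LAMB3 differed from vehicle by -0.20 (SE 0.24) with the combination, -0.08 (SE 0.24) with nintedanib and -0.21 (SE 0.24) with alpelisib. Without alpelisib 3 the alpelisib difference was -0.41 (limma unadjusted p = 0.0938).

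Collagen VII was the gene with the largest difference from vehicle. COL7A1 had values of 1555, 2691, 3107 and 2049 in combination libraries, 1823, 1465, 1143 and 1217 in nintedanib libraries, 1419, 1635, 2153 and 1527 in alpelisib libraries, and 2068, 1390, 1127 and 1805 in vehicle libraries. Combination 2 and combination 3 lay above every library of the other groups, and combination 1 and combination 4 lay inside the vehicle range. The group averaged 2351 ± 686 with the combination and 1598 ± 420 with vehicle (SD, n = 4 each), a log2 difference of 0.55 (SE 0.22, limma unadjusted p = 0.0220, adjusted p = 0.559). The difference from vehicle was -0.16 (SE 0.22) with nintedanib and 0.10 (SE 0.22) with alpelisib.

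The widest gap for COL7A1 was between the combination and nintedanib alone, where the mean was 2351 ± 686 with the combination and 1412 ± 307 with nintedanib (SD, n = 4 each). This log2 difference was 0.71 (SE 0.22, limma unadjusted p = 0.00409, adjusted p = 0.376), 1 of 9 genes higher where 4.03% of all genes were. Against alpelisib alone the difference was 0.45 (SE 0.22, limma unadjusted p = 0.0544), in a comparison where 0 of 9 genes had an unadjusted p under 0.05 and 4.71% of all genes were higher and 3.74% lower. Averaged over nintedanib, COL7A1 ran from 1419 to 3107 with a median of 1842 in the 8 libraries with alpelisib and from 1127 to 2068 with a median of 1428 in the 8 without it (0.40, SE 0.16, limma unadjusted p = 0.0174, adjusted p = 0.9996). At that threshold 2.21% of all genes were higher and 1.93% lower for this averaged effect. The interaction was 0.61 (SE 0.31, limma unadjusted p = 0.0629, adjusted p = 0.808), so a departure from additive effects was not shown. For the interaction 0 of 9 genes had an unadjusted p under 0.05, where 2.51% of all genes were higher and 3.72% lower. The difference from vehicle was 0.40 without combination 3 and 0.39 without vehicle 3 (limma unadjusted p = 0.100 and 0.103), and it was 0.73 without combination 1. Its unadjusted p also exceeded 0.05 without combination 2 (limma, 0.0617) and without vehicle 2 (limma, 0.0535).

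Levels of 7 of the 9 genes fell into 2 sets of correlated genes that cut across some of the integrin pairs. Over the 16 libraries, Pearson r of log2 values was 0.63 to 0.79 among ITGA6, ITGB1, ITGA2 and LAMA3, and 0.67 to 0.87 among ITGB4, ITGA3 and LAMB3. Between the sets r ran from -0.48 to 0.32. The chains of the hemidesmosome integrin, ITGA6 and ITGB4, had an r of -0.39, and those of the laminin receptor, ITGA3 and ITGB1, -0.48. The chains of the collagen receptor, ITGA2 and ITGB1, both stood in the first set, with an r of 0.72. LAMA3 with LAMB3 had an r of 0.32. COL17A1 and COL7A1 belonged to neither set. COL17A1 had an r of 0.73 with LAMA3 of the first set and 0.51 with LAMB3 of the second, and COL7A1 ran from -0.46 with ITGA6 to 0.54 with ITGB4. These are descriptions over libraries that share a scaling factor for all their genes, and the sets were chosen after the correlations were seen.

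Negative values between the sets depended on a pair of libraries. On deviations from group means, r was 0.55 to 0.79 within the first set and 0.69 to 0.87 within the second. Between the sets r ran from -0.59 to 0.37 on these deviations, with all libraries kept. Combination 2 and vehicle 1 were the lowest of their group for every gene of the first set and the highest of it for ITGA3 and ITGB4. Without these libraries r stayed at 0.57 to 0.74 and at 0.64 to 0.76 within the sets, while between the sets it ran from -0.07 to 0.58, with 0.17 for ITGA6 and ITGB4 and -0.07 for ITGA3 and ITGB1. Combination 2 had the most human reads of the series (18568119), vehicle 1 had 15627720, and mouse reads made up 26.95% and 24.12% of their totals, inside the range of 19.3% to 34.0% over all libraries. What sets these libraries apart was not tested.

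**Figure D3:**
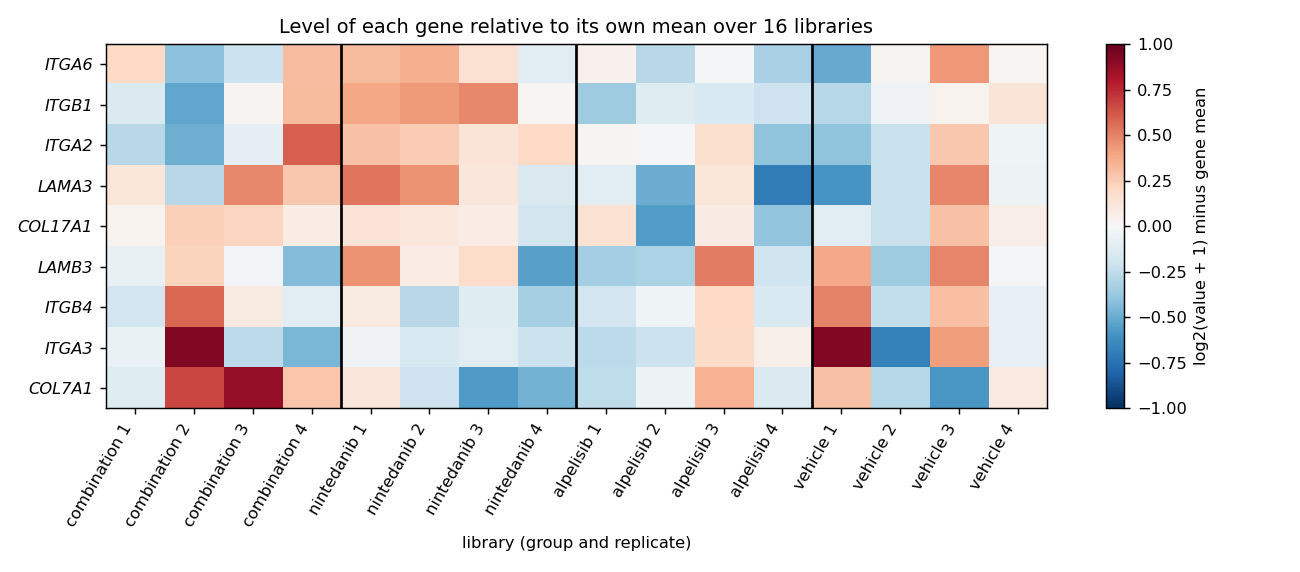
Level of each gene (rows) in each library (columns) as log2(value + 1) minus the gene's mean over 16 libraries, with lines between combination, nintedanib, alpelisib and vehicle. ITGA6, ITGB1, ITGA2 and LAMA3 share a pattern that ITGB4 and ITGA3 do not follow, most visibly in combination 2 and vehicle 1.

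Some hemidesmosome partners outside the 9 genes had high r with one set. DST, whose epithelial product links keratin filaments to the hemidesmosome, had an r of 0.68 to 0.85 with the first set. PLEC and CD151, encoding plectin and a tetraspanin that binds laminin-receptor integrins, had an r of 0.58 to 0.78 with the second. Without combination 2 and vehicle 1 these ran from 0.61 to 0.79 for DST with the first set and from 0.29 to 0.67 for PLEC and CD151 with the second, and PLEC then had an r of 0.77 with LAMA3 of the first set.

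**Figure D4:**
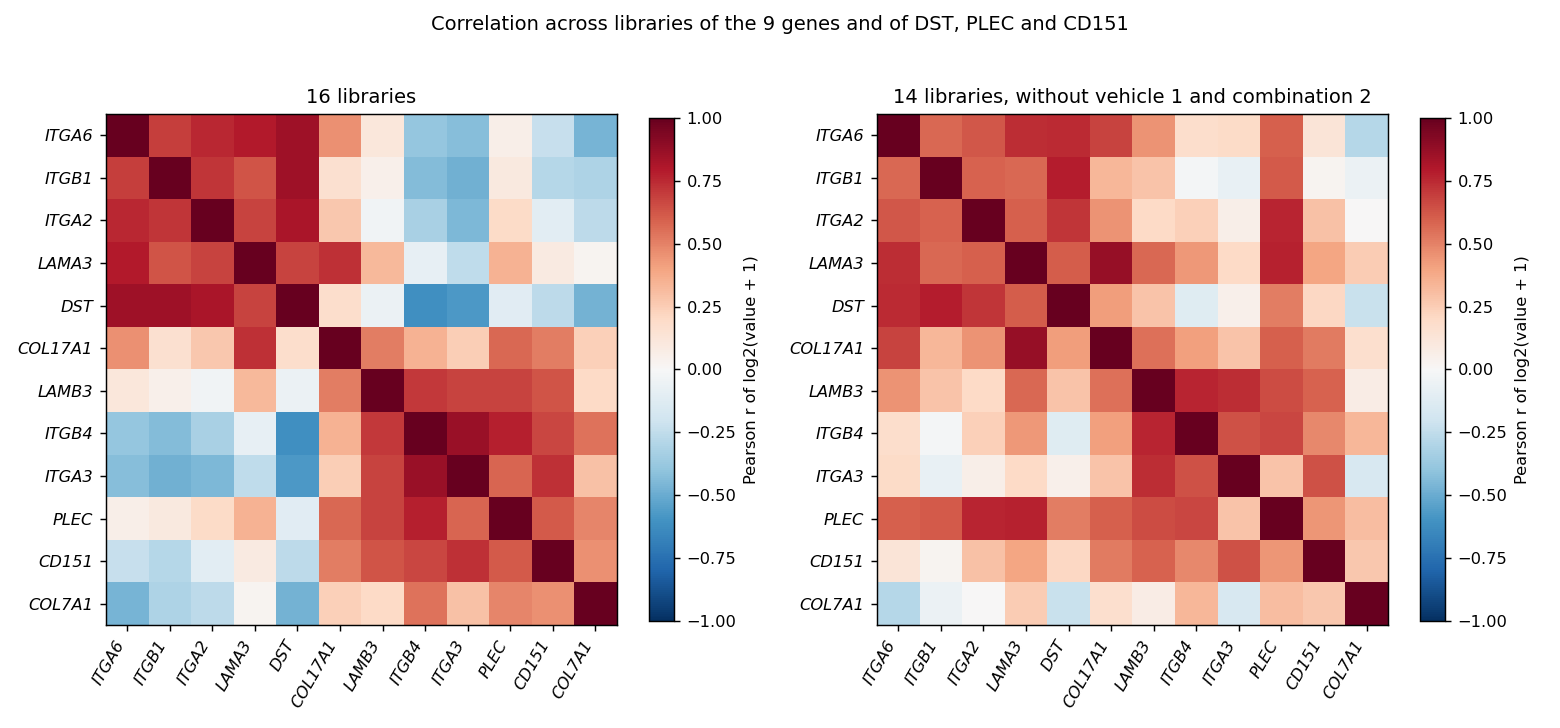
Pearson r of log2(value + 1) between pairs of genes, over 16 libraries (left) and over 14 without vehicle 1 and combination 2 (right), from -1 (blue) to 1 (red). The block of ITGA6, ITGB1, ITGA2, LAMA3 and DST and the block of LAMB3, ITGB4 and ITGA3 are seen in both panels, while negative values between them fade in the right panel, where PLEC is also positive with the first block.

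DST was the hemidesmosome partner with the clearest separation. It ran from 11183 to 19614 in nintedanib libraries and from 4184 to 9970 in vehicle libraries, which did not overlap (log2 difference 0.995, SE 0.30, limma unadjusted p = 0.00322, adjusted p = 0.291). In the combination libraries it ran from 3701 to 12613, a log2 difference from nintedanib of -0.99 (SE 0.30, limma unadjusted p = 0.00333, adjusted p = 0.373), and the interaction was -1.10 (SE 0.43, limma unadjusted p = 0.0166, adjusted p = 0.774). Over all genes, 4.86% were higher with nintedanib than with vehicle without overlap, and 6.88% were higher at an unadjusted p under 0.05. At that threshold 5.24% were lower for the combination against nintedanib and 3.72% for the interaction. ITGB8 and FERMT2, named below, were also higher with nintedanib than with vehicle without overlap.

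Of 37 related genes in 4 lists, 36 passed the filter (NID2 did not) and 0 passed an adjusted p of 0.05 in any of the 8 comparisons. At an unadjusted p under 0.05, 2 were higher and 1 lower with the combination, 4 higher and 1 lower with nintedanib, and 0 in either direction with alpelisib, each against vehicle. Over all genes these shares were 4.47% higher and 3.69% lower with the combination, 6.88% and 4.7% with nintedanib, and 1.69% and 0.793% with alpelisib. Among 5 hemidesmosome partners the median difference from vehicle was 0.0043 with the combination, 0.12 with nintedanib and -0.10 with alpelisib. Among 8 other epithelial integrins it was 0.19 with the combination, 0.36 with nintedanib and 0.0021 with alpelisib. These medians rest in part on genes with few reads. ITGB3 had at most 5 reads in a library, ITGA9 at most 10, ITGB6 at most 40 and ITGA1 at most 44. ITGB8, which pairs with ITGAV to activate latent TGF-beta, stood at 0.55 (SE 0.21, adjusted p = 0.346) and ITGAV at 0.46 (SE 0.22, adjusted p = 0.429) with nintedanib.

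Other basement membrane genes had a median difference from vehicle of 0.19 with the combination, -0.10 with nintedanib and 0.0041 with alpelisib over 12 genes. These medians include genes with few reads. COL4A2 had at most 7 reads in a library, NID1 at most 12 and LAMA4 from 9 to 114. All of these had a higher mean with the combination than with vehicle. LAMA5, the alpha chain of another epithelial laminin, stood at -0.39 (SE 0.17, adjusted p = 0.393) with nintedanib, and the collagen IV chain COL4A5 at 0.42 (SE 0.18, adjusted p = 0.599) with the combination. Between the combination and nintedanib alone LAMA5 differed by 0.47 (SE 0.17, limma adjusted p = 0.399). Over 11 integrin adaptors the median was -0.03 with the combination, 0.07 with nintedanib and -0.16 with alpelisib. FERMT2, a kindlin that activates integrins, stood at 0.61 (SE 0.23, adjusted p = 0.351) with nintedanib, and PXN, the focal adhesion scaffold paxillin, at -0.44 (SE 0.17, adjusted p = 0.559) with the combination.

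Mouse-table reads of the same genes were a far larger part for ITGB1 and COL7A1 than for the others. Each genome was mapped on its own, so a read that maps to both could stand in both tables, which was not tested. Mouse-table reads made up 41.9% to 64.8% of all reads of ITGB1 and 29.2% to 50.4% of those of COL7A1. Their share was 1.65% to 14.4% for ITGA6 and 4.26% to 9.97% for ITGB4. It was at most 4.63% in any library for ITGA3, ITGA2, LAMA3, LAMB3 and COL17A1. LAMB3 stood almost wholly in the human table, with 0 to 58 mouse reads of Lamb3 in a library.

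**Figure D5:**
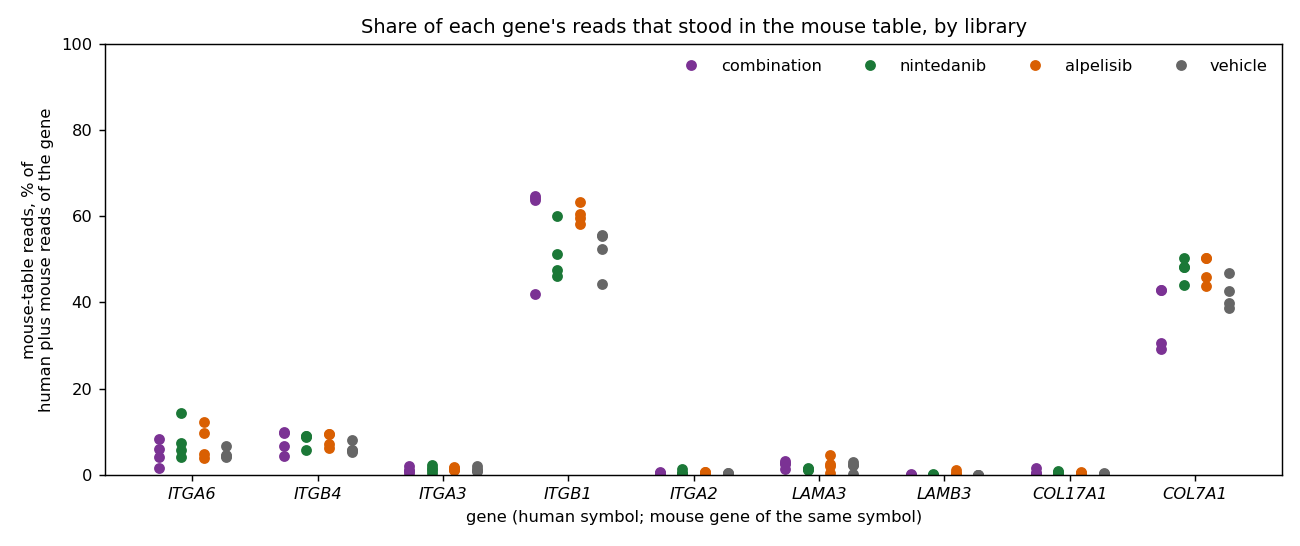
Mouse-table reads as a percentage of human plus mouse reads of each gene (y axis), by library and group. ITGB1 (41.9% to 64.8%) and COL7A1 (29.2% to 50.4%) have large mouse-table shares, and the other 7 genes stay at or below 14.4%.

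Whether host sequence stands in the human table was not tested, and muscle genes are set side by side here as a description. Skeletal muscle genes summed to 1487 in the human table in combination 1 and to 2183 in nintedanib 4, against 79.2 to 194 in the other 14 libraries, and these are the libraries with the highest mouse-table sums of the same genes (80748 and 141954). The human sums there were 1.84% and 1.54% of the mouse sums. Other libraries did not follow this order. Vehicle 2 had a mouse sum of 19092 and a human sum of 187, inside the range of the other 14 libraries. In combination 2 the human sum (176) was above the mouse sum (48.3). How much of the ITGB1 and COL7A1 values came from host reads was not tested. Mouse Col7a1 averaged 1193 ± 389 with the combination and 1315 ± 80.7 with vehicle, and mouse Itgb1 averaged 2685 ± 455 with nintedanib and 2491 ± 419 with vehicle (SD, n = 4 each). Without combination 1 and nintedanib 4, COL7A1 stood at 0.73 with the combination and ITGB1 at 0.47 with nintedanib.

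The mean standardized level of the 9 genes ran from -0.89 in alpelisib 4 to 0.80 in nintedanib 1, with vehicle 3 at 0.79 and vehicle 2 at -0.72. The 5 other genes whose levels followed it most closely over the 16 libraries were TTYH3 (r = 0.93), HK2 (0.91), SYT7 (0.91), EMP3 (0.90) and PFKFB3 (0.90). HK2 encodes a hexokinase and PFKFB3 a regulator of glycolysis. Looked up after its values were seen, ITGA3 was followed most closely by SLC25A1, the mitochondrial citrate carrier (r = 0.94), GRAMD1A (0.93) and CHPF (0.93). Its most opposite gene was RMI1 (-0.94). The same lookup gave IPMK for ITGB1 (r = 0.93, most opposite MOGS at -0.89). For COL7A1 it gave SPEG (r = 0.89, most opposite DDX20 at -0.87). All of these were picked as the most extreme of the genes past the filter, over only 16 libraries.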

How the data were processed

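Total RNA of 16 xenografts was made into QuantSeq 3′ mRNA libraries read at 75 bp, per the labels' protocols. Each genome, human and mouse, was mapped on its own, and TopHat, hg19 and mm10 are named in the submitters' processing notes. The sources used here do not name the counting tool, the annotation or the scaling. The deposited tables hold a normalized signal per gene and library. In each library 100% of values were whole multiples of 1 step within 0.01 read, so whole reads were recovered. In 3′ libraries reads do not scale with transcript length, and levels were not compared between genes.

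The plan foresaw counts or normalized values, and the branch for normalized values was used. Tests used log2(value + 1), for genes that reached a value of 1 in 4 or more libraries. A model with 1 mean per group was fitted to all 17663 genes and 16 libraries with limma 3.58.1 (trend) in R 4.3.3, with Benjamini-Hochberg adjustment across all genes. The steps were tested on simulated data. Alternatives included edgeR 4.0.16 quasi-likelihood and DESeq2 1.42.0 on recovered reads. The genes and lists were chosen with earlier results of these data known. All 9 genes were named by rule, and up to 2 genes a list with the smallest p in a comparison. One listed gene is not reported here. No library was left out of the reported fit.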

Additional observations from a re-analysis of the deposited data

Results flagged for a closer look

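A single value stood apart from its group. LAMB3 had a normalized value of 8959 in alpelisib 3, against 4977 to 5470 in the other 3 alpelisib libraries, a gap that took 87.6% of the group's range. Of 36 gene and group combinations examined for a library far from the others, this was the 1 found, and chance alone gives about 1 in 20.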

How the results depend on the processing

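With 4 libraries a group and standard errors of 0.17 to 0.28 log2, moderate changes could not be resolved. The count of genes past the adjusted threshold was 0 of 9 in all 8 comparisons under each of the 28 alternatives that could be fitted. The fit of only the groups compared was not run for the averaged effects and the interaction. The lowest adjusted p was 0.0998 (ITGB1, combination against nintedanib, without combination 4). DESeq2 called 13 of all genes for the combination, 79 for nintedanib and 1 for alpelisib against vehicle, and edgeR called 0, 2 and 0. The cause of the changes below was not tested.

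Of 32 gene differences followed, 21 kept their sign under every alternative run. Scaled to the human plus mouse total, ITGA2 stood at -0.029 with the combination and -0.0066 with alpelisib, and COL17A1 at -0.061 with nintedanib. After quantile normalization the combination differences were 0.052 for ITGA6, 0.042 for ITGB1 and 0.039 for ITGB4. Without the muscle-rich libraries (combination 1 and nintedanib 4) ITGB4 stood at 0.070 with the combination and LAMB3 at 0.11 with nintedanib. Without combination 2 and vehicle 1 together, chosen after seeing the data, ITGB1 stood at 0.025 with the combination. In that fit COL17A1 stood at -0.013 and LAMB3 at 0.00024 with nintedanib, and ITGA2 at -0.059 and ITGA3 at 0.057 with alpelisib.

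Leaving out each library in turn, combination differences ran from -0.19 to 0.17 for ITGA2, -0.41 to 0.15 for ITGA3, -0.19 to 0.13 for ITGA6, -0.17 to 0.11 for ITGB1 and -0.19 to 0.10 for ITGB4. Nintedanib differences ran from -0.051 to 0.12 for COL17A1 and -0.24 to 0.11 for LAMB3. Alpelisib differences ran from -0.059 to 0.23 for COL7A1, -0.059 to 0.17 for ITGA2, -0.48 to 0.057 for ITGA3 and -0.30 to 0.012 for ITGA6.

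The count of genes at an unadjusted p under 0.05 moved as follows. Against vehicle, it was 0 for the combination without the limma trend, and 0 for nintedanib with the combined total, without the trend, with edgeR and without combination 2 and vehicle 1. For combination against nintedanib it was 1 with quantile normalization, the combined total, only the groups compared and without combination 2 and vehicle 1. For combination against alpelisib it was 2 with quantile normalization and 1 with DESeq2, without the muscle-rich libraries and without combination 2 and vehicle 1. For the averaged nintedanib effect it was 0 with the combined total and without the trend. It was 2 there with quantile normalization, no filter, a pseudocount of 0.1, DESeq2 and either pair of libraries left out. The averaged alpelisib effect gave 1 with quantile normalization and the combined total, and the interaction gave 1 with these and without the muscle-rich libraries. Leaving out each library gave 0 to 1 for the combination and 0 to 3 for nintedanib against vehicle, 1 to 3 for combination against nintedanib and 0 to 2 for combination against alpelisib. It gave 0 to 2 for the averaged nintedanib effect, 1 to 2 for the averaged alpelisib effect and 0 to 1 for the interaction.

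Little sign of pairing by replicate number was seen. Over 24 same-numbered pairs the correlation of deviations ran from -0.22 to 0.15, with 2 above 0.1, and 6 of 16 libraries correlated best with their own number. With the replicate block the count at an unadjusted p under 0.05 was 0 for nintedanib against vehicle (ITGB1, limma unadjusted p = 0.0520), and 8 of all genes passed adjustment there.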
